A study of Danio rerio with 6 samples.

Results

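Whole-body RNA of 2 adult male and 2 adult female zebrafish was compared over the deposited table of normalised read counts. These 4 fish are part of a set of 6, and the other 2 are juveniles of 28 dpf (days post fertilisation). Transcripts were kept where at least 2 of the 6 fish had a value of 10 or more, which left 13748 of the 13927 assembled transcripts. Since 1 fish made 1 library, differences between animals and technical error both enter the spread within a sex. The fish were untreated and had been euthanised with Tricaine by the breeder, and the labels give neither a strain nor the exact age of the adults. The question put to the adult fish was which transcripts mark one sex, as a base for judging whether juveniles lean to either side.

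The transcripts of the table had been selected by the authors on a difference between females and juveniles. Male values are not part of that rule, but the values of the females compared here are. The counts and shares below therefore describe this selected list and not all transcripts of the fish. Female and juvenile means lay within 0.5 of each other on the log2 scale in 26 transcripts (0.189%), against 2008 (14.6%) for male and female means and 4626 (33.6%) for male and juvenile means. A transcript at the same level in females and juveniles is therefore nearly always outside the table, while males were free to sit anywhere. Where males lay near juveniles, this selection favours a difference between males and females. The table held 13980849 and 15881031 reads in the males and 18439319 and 15947424 reads in the females, the reads of the selected transcripts alone and not the depth of the libraries. One read was worth 0.889 and 0.799 normalised counts in the males and 1.16 and 1.41 in the females.

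A whole adult fish mixes the gonad with muscle, liver, blood, brain and skin. The ovary of zebrafish spawns throughout the year and holds oocytes of all stages, which stockpile messenger RNA for the early embryo, and the follicle cells around them make oestrogen. Oestrogen in turn drives the liver of females to make yolk precursors. The testis is far smaller and consists mostly of germ cells on their way to sperm. In whole-body RNA, fewer cells of a type and less RNA per cell cannot be told apart.

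Within this selected table, the sexes differed widely and unevenly. With limma-trend on log2 (normalised count + 1), 2761 transcripts were higher in males (20.1% of those tested) and 5564 were lower (40.5%), at an adjusted p under 0.05, so that 8325 (60.6%) differed in either direction. Males thus held the higher level in 33.2% of the transcripts called. Transcripts called higher in males had a median log2 fold change of 1.33 (interquartile range 1.00 to 1.98), and their median level was 264 normalised counts in males and 111 in females. Those called lower in males had a median of -2.10 (interquartile range -3.34 to -1.37), and their median level was 275 in males and 1249 in females. A difference of 4-fold or more was found in 677 (24.5%) of the transcripts called higher and in 2949 (53.0%) of those called lower. The numbers of all calls higher and all calls lower fell as each of the 6 fish, juveniles included, was left out. A larger part of the calls higher was lost each time. Such fits also have fewer degrees of freedom, and the part of that in the loss was not tested.

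The distribution of fold changes over all 13748 transcripts had a short arm towards males and a long one towards females. Its median was -0.16 and its mean -0.58 on the log2 scale, with the 5th and 95th percentiles at -4.76 and 2.18 and the 1st and 99th at -7.21 and 3.60. By number the arms were nearly even with the deposited scaling. The log2 fold change was above 0 in 6601 transcripts (48.0%), below 0 in 7127 and 0 in the 20 without a read in any adult. Under the other scalings described below, 54.6% to 61.1% of transcripts were above 0. The arms parted with the size of the difference. At 2-fold or more, 3216 transcripts were higher and 5325 lower in males. At 4-fold or more there were 843 and 3071, at 16-fold or more 86 and 1003, and at 64-fold or more 9 and 304. These counts depended on the pseudocount and on the model. A value of 10 in place of 1 gave 206 transcripts higher and 2656 lower at 4-fold or more. At 16-fold or more it gave 8 higher and 443 lower. DESeq2 and edgeR on recovered reads went the other way at 16-fold or more, with 273 and 304 higher and 1057 and 1045 lower. At 64-fold or more they gave 51 and 116 higher and 541 and 520 lower. Within 2-fold lay 5207 transcripts (37.9%), yet the density was not highest at 0. The density, smoothed with a bandwidth of 0.25, had a peak at -1.30 and a taller one at 0.86 on the log2 scale, and the dip between them at -0.27 was exceeded 1.38 and 2.47 times by these peaks. The table lacks transcripts at equal levels in females and juveniles, and the part of this selection in the dip was not tested.

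**Figure D1:**
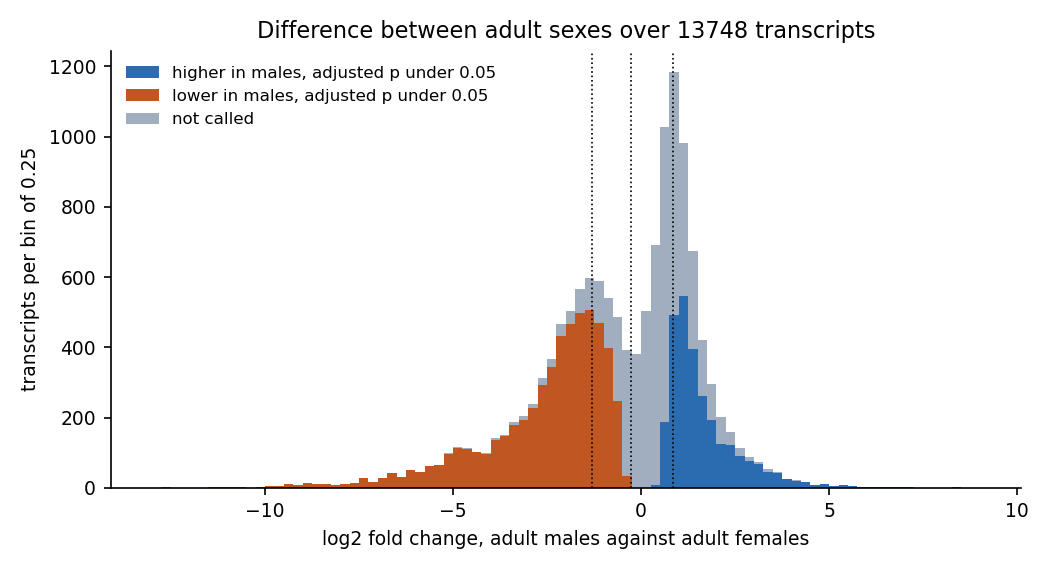
Number of transcripts (y axis, per bin of 0.25) by log2 fold change of adult males against adult females (x axis), over 13748 transcripts, with calls by limma in blue (2761 higher in males) and red (5564 lower in males) and transcripts without a call in grey. Dotted lines mark the peaks at -1.30 and 0.86 and the dip at -0.27. The tail towards females runs past -10 while few transcripts exceed 5 on the male side. All values are on the deposited scale.

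In this table, selected on females against juveniles, the differences were large beside those between fish of 1 sex. The part of the selection in this was not tested. The median absolute difference on the log2 scale was 1.27 between the mean of males and that of females, while it was 0.35 between the males and 0.34 between the females. In 10361 transcripts (75.4%) the sex difference was larger than both differences within a sex. Both males lay above both females in 5164 transcripts (37.6%) and below both in 6411 (46.6%), so that the sexes did not overlap in 84.2%. The sex difference and these counts were taken with the deposited scaling only, and may differ under another. Across transcripts, which are not independent replicates, the Pearson correlation of the log2 values was 0.951 between the males, 0.961 between the females and 0.708 to 0.763 between a male and a female. The smallest differences called were 0.41 upwards and 0.36 downwards on the log2 scale. Among the 5423 transcripts without a call, 70.8% lay within 2-fold, and a missing call does not show equal levels.

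At the extremes, transcripts had no read in one sex. In 221 transcripts both males had 0 reads and in 266 both females had, and 20 of them had 0 reads in all 4 adults. Of the 221, 196 were called lower in males. Their female means had a median of 38.7 and a maximum of 852 normalised counts, and 20 of them reached 100. Taking 3 reads over the group as the floor (1.27 normalised counts), the largest of these differences was at least 673-fold lower in males. Of the 266 without a read in females, 175 were called higher in males. Their male means had a median of 6.24 and a maximum of 356, and 5 reached 100, so that the largest difference was at least 185-fold higher in males over a floor of 1.93. Transcripts without a read in females were thus the more numerous and the weaker ones in this list. The filter could be passed through juveniles alone, and 1 read was worth more normalised counts in females. The part of the filter, the selection and the value of a read in this was not tested. Male levels were also the lower ones at 16-fold or more. The 86 transcripts higher in males had a median of 54.4 normalised counts in males and 0.705 in females, and the strongest averaged 1216 in males. The 1003 lower in males had a median of 3.11 in males and 217 in females, and the strongest averaged 221641 in females.

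The direction of the difference depended on abundance, taken as the mean of the male and the female mean. Among the 2196 transcripts under 30 normalised counts, the median log2 fold change was 1.04, 70.9% had a fold change above 0, and 561 were called higher against 396 lower. The median was 0.55 among the 2481 transcripts of 30 to 100 and 0.37 among the 2792 of 100 to 300. It turned to -0.63 among the 2803 transcripts of 300 to 1000, and to -1.31 among the 2257 of 1000 to 3000, where 20.3% had a fold change above 0 and calls stood at 280 higher and 1641 lower. It was -1.21 among the 997 of 3000 to 10000 and -0.99 among the 222 of 10000 and over, with 33 calls higher and 132 lower in males. Males therefore held 58.6% of the calls in the weakest class and between 11.7% and 20.0% in the 3 strongest. Their majority in the weakest class was lost with a pseudocount of 10, where the median was 0.47 and 390 transcripts were called higher against 419 lower (48.2% of calls higher). It was also lost with classes set by the mean of the log2 values, where 657 were called higher against 772 lower (46.0%). The scaling moved the male shares of calls as well. With TMM they were 70.8% in the weakest class and 24.2% to 37.6% in the 3 strongest. With the upper quartile they were 77.4% and 37.8% to 50.9%.

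Large differences followed the same split. Of the 843 transcripts at 4-fold or more higher in males, 65.0% had an adult mean under 30 and 2.85% had one of 1000 or more. Of the 3071 at 4-fold or more lower in males, 12.9% and 31.7% lay in these ranges. With a pseudocount of 10, 206 transcripts were 4-fold or more higher and 2656 were 4-fold or more lower. In the class under 30, those higher went from 548 to 24 and those lower from 397 to 177. Weak transcripts are also the noisier ones. The median difference between fish of 1 sex was 0.63 on the log2 scale in males and 0.82 in females under 30. It fell to 0.20 and 0.14 at 3000 to 10000, but stood at 0.32 and 0.16 at 10000 and over. Of the transcripts at 4-fold or more higher in males 80.3% were called, as were 96.0% of those lower. Calls rest on the same fold changes, so these shares are no test of the noise. The order of the classes rested on how abundance was measured. With classes set by the juvenile mean, which takes no part in the fold change, the median was -2.27 under 30, 0.64 at 30 to 100, 0.33 at 100 to 300, -0.08 at 300 to 1000, -0.51 at 1000 to 3000, -0.03 at 3000 to 10000 and 0.51 at 10000 and over. Transcripts weak in juveniles were thus mostly lower in males, the reverse of the weakest class by adult mean. The selection on females against juveniles bears on this order too, and its part was not tested.

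**Figure D2:**
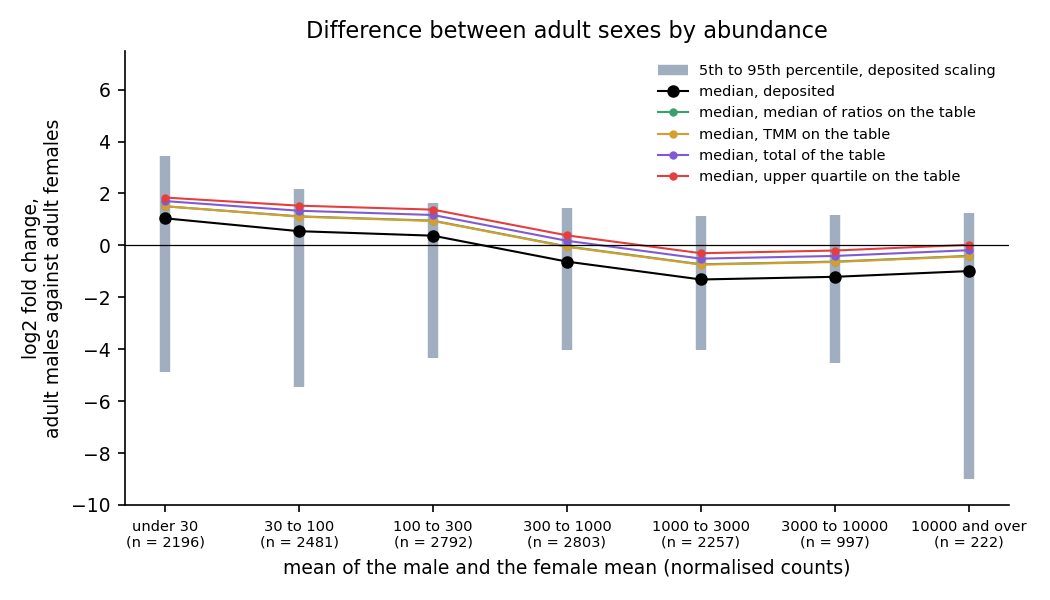
Log2 fold change of adult males against adult females (y axis) in 7 classes of the mean of the male and the female mean (x axis, normalised counts, with the number of transcripts), with the 5th to 95th percentile of the deposited values as bars and the class medians under 5 scalings as lines. The median of the deposited values is above 0 in the 3 weakest classes and below 0 in the 4 strongest, and other scalings move the whole line upwards.

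With the deposited scaling, transcripts called lower in males carried most of the female signal. They made up 37.3% and 35.9% of the summed normalised counts in the males and 74.5% and 77.0% in the females, a mean of 36.6% ± 0.995 in males and 75.8% ± 1.75 in females (SD, n = 2 each). Transcripts called higher in males made up 28.6% and 31.2% in the males and 8.47% and 7.37% in the females. Those without a call made up 34.1% and 32.9% in the males and 17.0% and 15.6% in the females. The called transcripts were chosen on these values, so the shares describe them and are no test. The mean male share in transcripts called higher was 29.9% with all fish but 8.26% without female 2 and 13.0% without female 1, as abundant transcripts lost their calls. Scaling moved these shares as well. With the upper quartile, transcripts called lower in males held 13.6% of the male and 48.7% of the female signal, and those called higher 60.0% of the male and 22.0% of the female signal.

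By size of the difference, the 3071 transcripts at 4-fold or more lower in males were 22.3% of the transcripts, and held 6.85% and 6.62% of the male sum and 35.3% and 37.1% of the female sum. The 304 at 64-fold or more lower were 2.21% of the transcripts, and held 0.0865% and 0.0366% of the male sum and 10.4% of the sum in each female. On the other side, the 843 at 4-fold or more higher in males were 6.13% of the transcripts and held 1.75% and 2.10% of the male sum and 0.271% and 0.149% of the female sum. The male signal was concentrated in transcripts within 2-fold, which held 52.0% and 51.0% of it, against 29.6% and 28.0% of the female signal. These fold classes rest on the deposited scaling. It placed 5207 transcripts within 2-fold, against 4126 with the upper quartile, and the shares were not taken under other scalings.

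**Figure D3:**
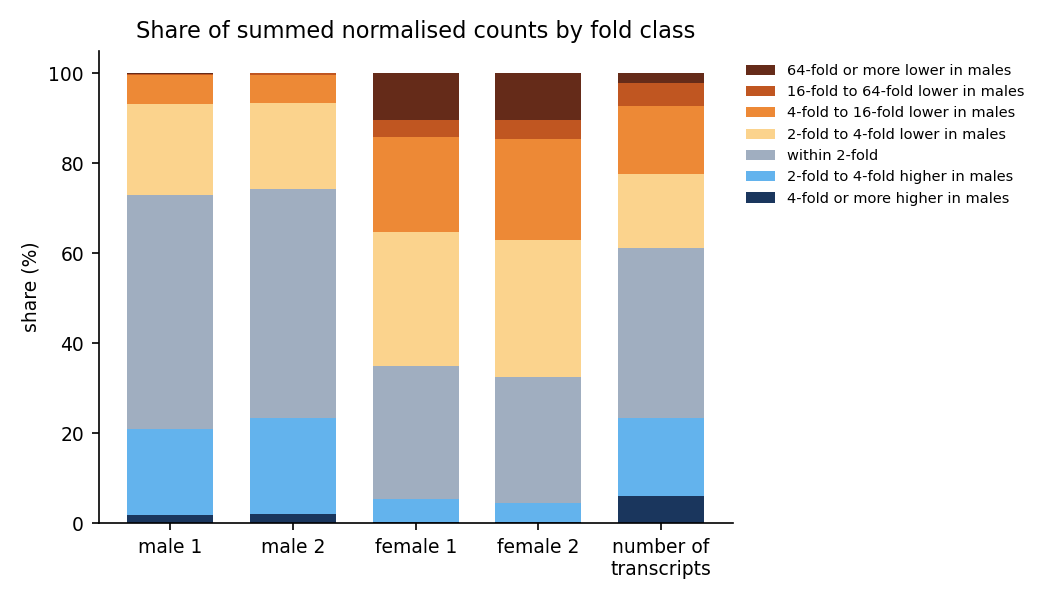
Share of the summed normalised counts (y axis, percent) in each adult fish by size of the difference between the sexes, with the deposited scaling. The last bar gives the share of the number of transcripts. Transcripts at 4-fold or more lower in males fill 6.85% and 6.62% of the male bars and 35.3% and 37.1% of the female bars, and those at 4-fold or more higher in males (darkest blue) are a thin base in every fish.

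On the deposited scale the summed table averaged 12562600 ± 180773 in males against 21940900 ± 755563 in females (normalised counts, SD, n = 2 each), 1.75 times as much in females. The exact two-sided permutation test gave p = 0.333, the smallest that 2 fish against 2 allow. Summed over the 7097 transcripts with the lower arithmetic mean in males, the sexes were 12419800 normalised counts apart, while the 6631 with the higher mean in males came to 3045680, a ratio of 4.08. Both ratios depend on the scaling, and scaling to the total of the table sets the sums equal by construction. The female excess was spread over many transcripts, with 414 carrying 50% of it and the 10 largest 10.2%. The male excess was narrower, with 77 transcripts carrying 50% and the 10 largest 24.5%. The spread of either excess was taken with the deposited scaling only and may differ under another. Within a single fish, 413 and 388 transcripts made up 50% of the sum in the males and 589 and 595 in the females.

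Of the transcripts without a gene name, those called with the largest differences between the means show these forms. MSTRG.19567.1 had 374259 and 667206 normalised counts in the males and 230293 and 215504 in the females, that is 3.01% and 5.26% of the male sum and 1.08% and 0.959% of the female sum. It was 2.34-fold higher in males (log2 fold change 1.17, SE 0.39, limma adjusted p 0.0421). MSTRG.20771.1 had 177243 and 241949 in the males and 112684 and 119228 in the females, 1.81-fold higher in males (0.84, SE 0.28, limma adjusted p 0.0427). Neither passed the test once male 2, either female or either juvenile was left out, with limma adjusted p from 0.0619 to 0.557 for MSTRG.19567.1 and from 0.0686 to 0.428 for MSTRG.20771.1. Both differences were thus moderate in fold and close to the threshold.

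The strongest female transcripts were of another kind. MSTRG.14894.1 had 58.7 and 19.2 normalised counts in the males and 244904 and 198379 in the females, 5692-fold lower in males, and its log2 fold change of -12.63 (SE 0.91, limma adjusted p 0.000169) was the lowest of all 13748 transcripts. It made up 1.14% and 0.883% of the female sum. MSTRG.18161.1, with 37037 and 37359 in the males and 184827 and 232785 in the females, was abundant in both sexes and 5.61-fold lower in males (-2.48, SE 0.21, limma adjusted p 0.000257). The 4 fish did not overlap in either.

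The balance between the sexes depended on the scaling, which sets where 0 lies. Size factors estimated over the 6 fish on the table differed from the deposited ones, and the cause was not tested. Scaling on the table raised males against females by 0.57 on the log2 scale with TMM, 0.59 with the median of ratios, 0.80 with the total of the table and 1.01 with the upper quartile. The median fold change became 0.38, 0.40, 0.60 and 0.81. Calls became 4882 higher and 4336 lower with TMM, 4903 and 4301 with the median of ratios, 5580 and 3766 with the total, and 6149 and 3258 with the upper quartile. Males then held 53.0% to 65.4% of the calls, against 33.2% with the deposited values. Such scalings assume that most transcripts in the table, or their sum, do not differ between the sexes, and this table is selected on females.

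Each of these scalings raises nearly all male values by about the same amount against female values, so calls higher in males were bound to stay and distances within the distribution to keep their size. Thus all 2761 transcripts called higher in males with the deposited values were called higher under each of the 4 other scalings. Of the 5564 called lower, 3258 (58.6%) were called lower under all of them, and the difference nearest 0 among these was -1.36 on the log2 scale with the deposited values. With the upper quartile 103 of the 5564 were called higher, and 7 were with the total. What the scaling does set is the side of 0, and 3 abundance classes had a median above 0 with the deposited values, TMM and the median of ratios, 4 with the total and 5 with the upper quartile. At 2-fold or more, transcripts higher in males were the more numerous under all 4 scalings, for example 5593 higher and 3990 lower with TMM. At 4-fold or more there were 1626 higher and 2156 lower with TMM and 1647 and 2141 with the median of ratios, but 2313 and 1900 with the total and 3087 and 1698 with the upper quartile. At 16-fold or more those lower in males stayed the more numerous, with 174 higher and 655 lower under the upper quartile.

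**Figure D4:**
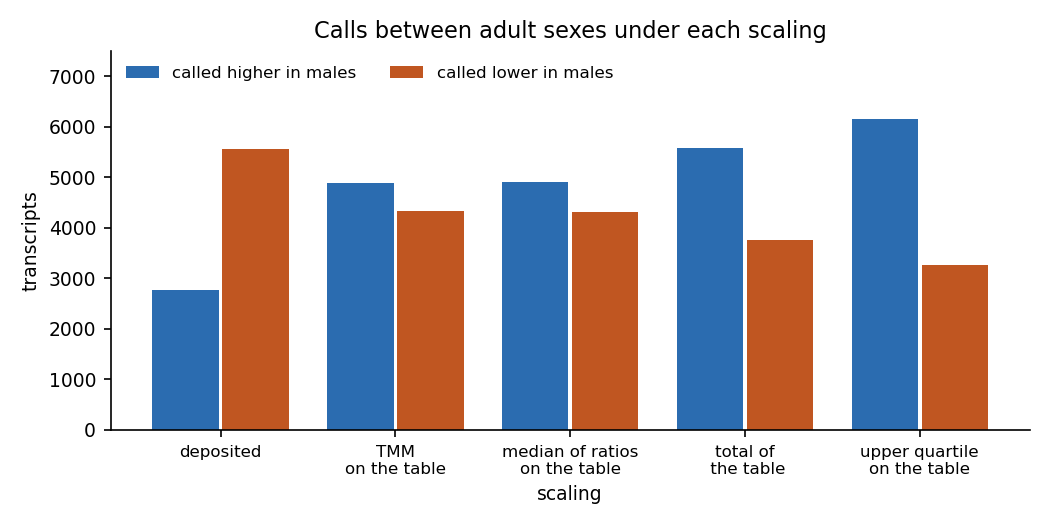
Number of transcripts (y axis) called higher (blue) or lower (red) in males by limma at an adjusted p under 0.05 under each of 5 scalings (x axis). The deposited values give 2761 higher and 5564 lower, and the order of the bars is turned under the 4 scalings estimated on the table, up to 6149 higher and 3258 lower.

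Named sex markers of the study were placed on this distribution. The table gives no gene names, and 21 markers had been paired with transcripts by earlier work on these data, through their values per fish in heat maps of the study. That pairing used the values described here, so the levels below describe the fish the markers were chosen on. Of the 21, 6 were called higher in males, 14 lower and 1 was not called, where 20.1% of all transcripts were called higher and 40.5% lower. The markers were chosen as such, so nothing is read from these counts. Their median log2 fold change was -2.24 against -0.16 over all transcripts. With the deposited scaling the sexes did not overlap in any of the 21, as in 84.2% of all transcripts. Together they made up 2.39% and 1.70% of the summed counts in the males and 1.62% and 1.76% in the females.

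The oocyte ligands lay deep in the female tail. bmp15, a growth factor of the TGF-beta family secreted by oocytes, had 31.1 and 7.19 normalised counts in the males and 5940.4 and 7429 in the females. It was 349-fold lower in males (log2 fold change -8.68, SE 0.69, limma adjusted p 0.000214), with 54 transcripts below it. gdf9, its close relative from the oocyte, had 24.0 and 4.0 in the males and 3021 and 3705 in the females (-8.23, SE 0.96, limma adjusted p 0.000784), with 77 transcripts below it. zbp3, read here as zp3b of the egg envelope, behaved otherwise, with 1572 and 1885 in the males and 2423 and 2724 in the females. That is 1.49-fold lower in males (-0.58, SE 0.17, limma adjusted p 0.0262), near the middle of the distribution, since 45.0% of transcripts lay below it. It lost its call without male 1 or either female (limma adjusted p 0.100, 0.0638 and 0.126) and under all 4 other scalings, with log2 fold changes of -0.0068 with TMM, 0.0081 with the median of ratios, 0.23 with the total and 0.43 with the upper quartile. Its adult values were shared with another gene in the heat maps, so this name is less sure.

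Genes of the cell cycle and of nuclear import followed the oocyte ligands. ccnb1, the cyclin that drives entry into M phase and is stored in eggs, had 860.1 and 649 normalised counts in the males and 53898 and 81366 in the females, 89.6-fold lower in males (-6.47, SE 0.24, limma adjusted p 9.06e-05). kpna2, an importin that carries proteins into the nucleus, had 1058 and 1411 in the males and 31502 and 36809 in the females, 27.7-fold lower in males (-4.80, SE 0.19, limma adjusted p 9.28e-05). Both were far from absent in males, and their SE was small beside those of bmp15 and gdf9.

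Genes of steroid synthesis varied among themselves. cyp17a1, which makes androgen precursors in either gonad, had 251 and 91.9 normalised counts in the males and 5786 and 6642 in the females, 36.3-fold lower in males (-5.34, SE 0.48, limma adjusted p 0.000293). cyp19a1a, the ovarian aromatase that turns androgen into oestrogen, had 0 reads in both males and 20.9 and 31.0 normalised counts in the females, from 18 and 22 reads, at least 20.5-fold lower in males. With so few reads, both its level and its pairing with a transcript are uncertain. ftz-f1, read as nr5a2, a nuclear receptor that activates steroid enzymes, had 347 and 402 in the males and 674 and 549.6 in the females (-0.70, SE 0.21, limma adjusted p 0.0283). Its call was lost without female 1 or either male (limma adjusted p 0.0894, 0.107 and 0.0558) and under all 4 other scalings, with log2 fold changes of -0.12 with the median of ratios, -0.13 with TMM, 0.10 with the total and 0.31 with the upper quartile. nr0b1, a nuclear receptor that represses this group, had 563 and 143 in the males and 733 and 602 in the females and was not called (-1.22, SE 0.62, limma adjusted p 0.129). The males were far apart, and without male 1 it was called lower (-2.21, limma adjusted p 0.00781).

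The growth factor igf3, an insulin-like growth factor of the fish gonad, had 4.45 and 1.60 normalised counts in the males and 102 and 161 in the females, 43.5-fold lower in males (-5.10, SE 0.59, limma adjusted p 0.000761). Metabolic and protein-handling genes were abundant in females and present in males. rdh10b, which oxidises retinol on the way to retinoic acid, had 631 and 589.7 in the males and 22451 and 24519.5 in the females (-5.26, SE 0.15, limma adjusted p 9.06e-05). gyg1a, the glycogenin that primes glycogen synthesis, had 1878 and 4575 in the males and 29395 and 32685 in the females (-3.40, SE 0.39, limma adjusted p 0.000704). The males differed more from each other in gyg1a than the females did. ctsla, a cathepsin L protease of lysosomes, was 4.51-fold lower in males, at 6157 and 11559 in the males and 37064 and 42760.5 in the females. pdia, a protein disulfide isomerase whose family member is not given, was 3.94-fold lower in males, at 13051 and 10579 in the males and 40197 and 53010.5 in the females.

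Markers of liver and blood pointed both ways. vtg1, the yolk precursor made by the liver of females, had 0 reads in both males and 51.1 and 70.5 normalised counts in the females, from 44 and 50 reads, at least 48.0-fold lower in males. This level is low for a yolk precursor, and the transcript is 1 of many at its locus, so its identity is uncertain. apobb1, an apolipoprotein of liver lipoproteins, had 154533 and 80684 in the males and 55243 and 53648 in the females, 2.16-fold higher in males (1.04, SE 0.34, limma adjusted p 0.0384). Its call was lost without male 1, either female (limma adjusted p 0.0628, 0.249 and 0.290) or either juvenile (0.0730 and 0.0724). hbaa1, an alpha globin of red blood cells, had 21273 and 24547 in the males and 15467 and 11988 in the females, 1.67-fold higher in males (0.75, SE 0.19, limma adjusted p 0.0164), and lost its call without male 2 or female 2 (limma adjusted p 0.0589 and 0.135). Both fold changes lay near the male peak of the distribution at 0.86 on the log2 scale.

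The remaining male markers sat in the same range. sox9a, a transcription factor of the testis and of cartilage, had 875 and 634 normalised counts in the males and 283 and 400.2 in the females, 2.21-fold higher in males (1.14, SE 0.25, limma adjusted p 0.00891). Its transcript matched on 5 of 6 values. atp1b1a, a subunit of the sodium pump, had 24502 and 23207 in the males and 13056 and 9478 in the females, 2.12-fold higher in males (1.10, SE 0.19, limma adjusted p 0.00395). gapdhs, an enzyme of glycolysis, was 1.72-fold higher in males, at 26334 and 24304 in the males and 16173 and 13282 in the females. fkbp5, a co-chaperone of steroid hormone receptors, had 43027 and 30897 in the males and 13754 and 12558 in the females, 2.81-fold higher in males (1.47, SE 0.34, limma adjusted p 0.0112). The call of fkbp5 was lost without male 1 or either female (limma adjusted p 0.0566, 0.0821 and 0.109), while gapdhs lost its call without female 2 (limma adjusted p 0.0927) and sox9a without female 1 (0.0538). Over transcripts of all levels, the male markers were therefore not those with the highest fold changes. In all, 1625 transcripts had a higher fold change than fkbp5, which had the highest among these markers. In its abundance class of 10000 and over, however, the 95th percentile was 1.25 on the log2 scale, below the 1.47 of fkbp5. The other male markers of that class lay below this percentile.

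**Figure D5:**
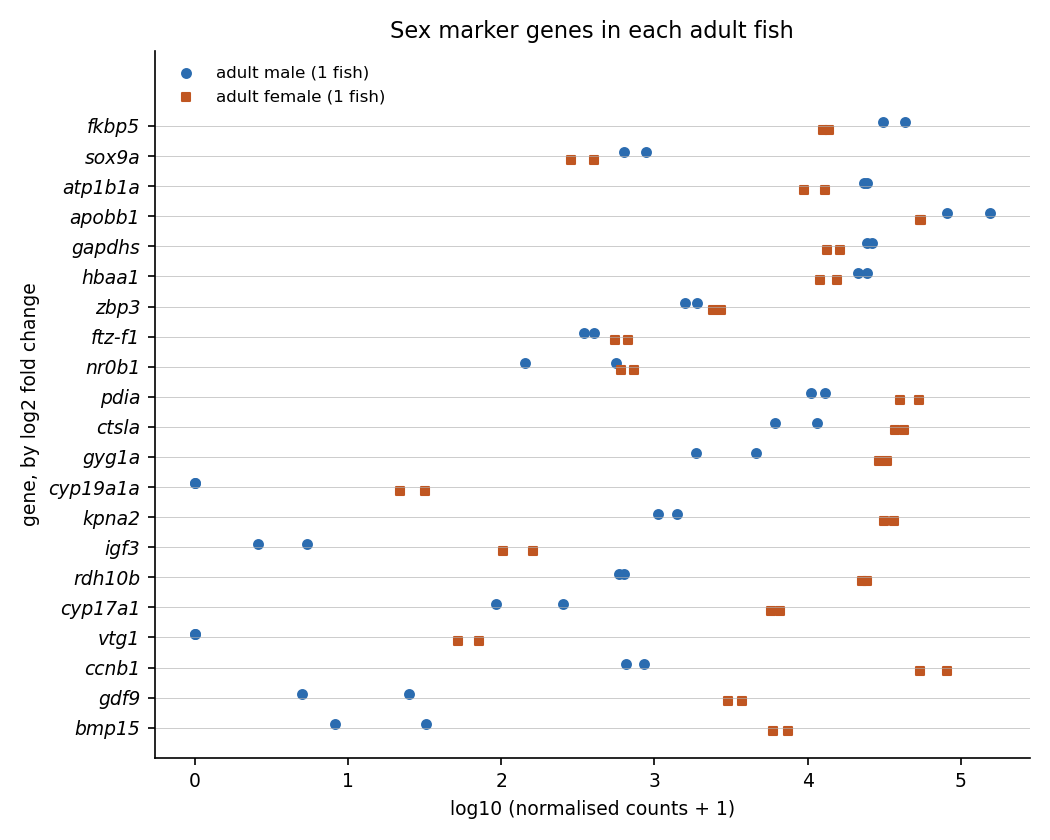
Level of 21 sex markers (y axis, ordered by log2 fold change with the highest in males at the top) in each adult fish, as log10 (normalised counts + 1) on the x axis, with males as blue circles and females as red squares, 1 point per fish. The 6 male markers at the top differ by 1.67-fold to 2.81-fold, whereas bmp15 at the bottom has 31.1 and 7.19 normalised counts in males and 5940.4 and 7429 in females.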

How the data were processed

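The authors mapped whole-body reads to GRCz11 with HISAT2 2.1.0, assembled transcripts with StringTie 1.3.4, counted reads per transcript with featureCounts 1.6.3 and normalised with DESeq2 2.11.40.2. The deposited signal is each read count over a size factor per fish, as the authors computed it, and 100% of values gave whole reads within 0.01 of a read. The table was selected by the authors on females against juveniles. Its columns of the authors' comparison (log2 fold change, standard error, Wald score, p-value, adjusted p-value and the difference of female and male means), 47 selection marks and 4 free-text notes were not used. Sample columns that matched no label numbered 0. The juvenile columns are numbered otherwise than the labels and were assigned to their group only. The library kit's strand setting is not given in the sources used here.

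Males were compared with females by limma-trend (R 4.3.3 with limma 3.58.1) on log2 (normalised count + 1), over transcripts at 10 or more in at least 2 fish, with all 6 fish as 3 groups (3 residual degrees of freedom), no replicate block and Benjamini-Hochberg adjustment at 0.05. The authors compared groups with DESeq2, and a log-scale test was used here because the values are normalised. Every adjusted p printed is from limma, including those without a fish. Fold classes (2-fold to 64-fold) and calls use the fitted log2 fold change of log2 (normalised count + 1), and folds of single transcripts are ratios of group means. Alternatives were 4 scalings, no filter or a filter of 100, a pseudocount of 10, edgeR 4.0.16 and DESeq2 1.42.0 on recovered reads, a fit of adults alone, a replicate block and leaving out each fish. The fit was also run on simulated data with known folds and the deposited size factors. Those runs do not bear on the scaling or on the selection of the table. Values were summarised in Python 3.11.15 with scipy 1.17.1, numpy 2.4.6 and pandas 2.3.3.

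Named were every marker gene of the study that earlier work had paired with a transcript, and, of transcripts without a name, the 2 called higher and the 2 called lower with the largest difference of means. Members and lists were chosen with earlier results of these data known. Of the 21 genes, 19 were found by symbol in the RefSeq annotation of GRCz12tu, and the locus numbers of all 18 neighbouring pairs ran in the same order. ipo4, cyp26b1, spata6, dmrt1, lhcgr and foxl2a were not analysed here. Apart from this order of named genes in the annotation, no coordinates and no sequences were used.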

Additional observations from a re-analysis of the deposited data

How the results depend on the processing

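Without 1 of the 6 fish, calls higher in males ranged from 1238 to 2091, calls lower from 4202 to 5349, the share of calls higher from 22.8% to 30.8%, the median log2 fold change from -0.23 to -0.16, the male counts in transcripts called higher from 8.26% to 30.3% and the female counts in those called lower from 63.4% to 74.7%. With the median of ratios, TMM, the total and the upper quartile, calls higher were 4903, 4882, 5580 and 6149, calls lower with the upper quartile 3258, and the share of calls higher 53.3%, 53.0%, 59.7% and 65.4%. The median was 0.40, 0.38, 0.60 and 0.81, the male counts in transcripts called higher 48.9%, 48.2%, 53.7% and 60.0%, and the female counts in those called lower 61.5%, 61.6%, 55.0% and 48.7%. These follow from the shift that each scaling adds. zbp3 turned to 0.0081, 0.23 and 0.43 on the log2 scale with the median of ratios, the total and the upper quartile, and ftz-f1 to 0.10 and 0.31 with the total and the upper quartile. A filter of 100 gave a share of calls higher of 31.8% and a median of -0.42, a pseudocount of 10 a share of 32.0% and edgeR one of 31.4%, and DESeq2 put 35.9% of the male counts in transcripts called higher. The cause was not tested. With adults alone the share of calls higher was 26.9%, the male counts in transcripts called higher 22.4% and the female counts in those called lower 73.2%. The part of fewer fish and degrees of freedom in this was not tested. Of the calls with all fish, 1884 higher and 5264 lower remained, without those of apobb1 and MSTRG.19567.1 (limma adjusted p 0.0663 and 0.0535).

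Males and females share replicate numbers in the labels, which do not say whether same-numbered fish belong together. Deviations of same-numbered fish correlated at -0.042 across transcripts. Transcripts are not independent, so this value does not settle whether the fish are paired. The fit of adults with a replicate block gave 1511 calls higher and 5150 lower, a share of calls higher of 22.7%, 21.4% of the male counts in transcripts called higher and 72.0% of the female counts in those called lower, and zbp3, ftz-f1, hbaa1, MSTRG.19567.1 and MSTRG.20771.1 lost their calls.

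With 2 fish per sex and 3 residual degrees of freedom, small differences and weak transcripts are the least certain, and 3 reads stand for 2.40 to 4.23 normalised counts in 1 adult fish. The age, strain and body composition of single adults cannot be told apart from their sex.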

Other observations

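The following was chosen after its values were seen and has no test. Locus numbers of the assembly ran in the order of the annotation for 18 of 18 neighbouring pairs of named genes, and fold changes were summarised in windows of 500 locus numbers, 76 of which held 40 or more transcripts. One window stood above the others, from locus 5500 to 5999, between the loci of hbaa1 and ctsla. Its 46 transcripts had a median log2 fold change of 1.24 between males and females, while the next highest window had 0.57 over 191 transcripts. In it 17 transcripts (37.0%) were called higher in males and 4 (8.70%) lower, against 20.1% and 40.5% in the whole table. The next highest share of a window called higher was 30.4%. At 4-fold or more higher in males there were 12 transcripts (26.1%), and the next highest window had 22.4%. The window holds few transcripts for its width, and their median adult level was 60.4 normalised counts. Of all transcripts tested with an adult mean of 30 to 100, 17.4% were called higher and 23.9% lower, and their median was 0.55. The genes of the window have no names here.

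At the other end, the 982 transcripts from locus 32500 to the last locus, 38055, had a median of -0.97, against -0.10 over the 12766 others. The medians of the 11 windows in this stretch ran from -1.37 to -0.27. Between 34.5% and 45.3% of a window was called lower in males, around the 40.5% of the whole table. Calls higher were 9.88% to 24.1% of a window, against 20.1%. At 4-fold or more, 27.6% to 35.6% were lower and 5.48% to 22.4% higher, against 22.3% and 6.13%. The median juvenile mean of a window was 39.2 to 125 normalised counts. The median adult level was 113 normalised counts in the stretch and 259 outside it.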
